A study of Rattus norvegicus with 6 samples.

Results

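A set of 7 genes was selected by name from the deposited expression table: the sodium channel beta subunit genes Scn2b, Scn3b and Scn4b, and Fgf11, Fgf12, Fgf13 and Fgf14, which encode fibroblast growth factor homologous factors. Each was found among the 22536 genes of the table. The study sequenced RNA from male rats in 2 groups, with 3 libraries from controls and 3 from rats with painful diabetic neuropathy (PDN), a nerve disease of diabetes that causes pain. The design text counts 3 rats per group, and whether any library pools animals is not stated. Sensory neuron is the tissue named in the labels, and the series title refers to the dorsal root ganglion, which holds the cell bodies of sensory neurons and their glia. The sources used here do not give the strain, the age, how diabetes was induced or for how long. The p-values measure the spread between these samples.

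A voltage-gated sodium channel consists of a large alpha subunit, which forms the pore, and smaller beta subunits. Beta subunits are single-pass membrane proteins with an extracellular immunoglobulin domain. They set how fast and at which voltage the channel opens and inactivates, help it to reach the membrane, and act as adhesion molecules. The FGF homologous factors resemble growth factors but are not secreted. They bind the intracellular tail of the alpha subunit and shift its inactivation. In sensory neurons both families act on the channels that generate the action potential.

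In the deposited table Scn2b (ENSRNOG00000016221) lies on chromosome 8 at 49418965 to 49427689 and Scn4b (ENSRNOG00000026679) on chromosome 8 at 49441106 to 49456279, with 13416 bases between them. Scn3b (ENSRNOG00000057221) lies on the same chromosome at 44136496 to 44159010. Fgf11 (ENSRNOG00000014882) is on chromosome 10 at 56403256 to 56409017, Fgf12 (ENSRNOG00000001931) on chromosome 11 at 75905443 to 76168989, Fgf13 (ENSRNOG00000042753) on chromosome X at 142053654 to 142248369, and Fgf14 (ENSRNOG00000009288) on chromosome 15 at 110385217 to 110612681. Each locus is the gene as that table bounds it, with its introns. The sources used here name no genome build for these positions.

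The 100 bases before an annotated transcription start are shown for Scn2b and Scn4b, which are neighbours on the chromosome but were expressed at different levels, and for the other abundant genes, Fgf12 and Fgf13. They are RefSeq sequences of the rat assembly GRCr8, whose coordinates are separate from those above, and 6 of the 7 genes had an entry. Each runs 5′ to 3′ along the gene's own strand, and capitals mark CpG dinucleotides, the sites that DNA methylation uses.
Scn2b, chr8:54322283-54322382, plus strand: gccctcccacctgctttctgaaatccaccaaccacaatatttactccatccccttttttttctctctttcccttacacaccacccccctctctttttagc
Scn4b, chr8:54343773-54343872, plus strand: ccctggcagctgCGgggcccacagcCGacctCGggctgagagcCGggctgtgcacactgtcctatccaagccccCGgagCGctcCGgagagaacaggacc
Fgf12 first start, chr11:85501847-85501946, plus strand: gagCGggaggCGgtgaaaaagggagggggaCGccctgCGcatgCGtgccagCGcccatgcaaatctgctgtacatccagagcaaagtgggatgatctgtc
Fgf12 second start, chr11:85801658-85801757, plus strand: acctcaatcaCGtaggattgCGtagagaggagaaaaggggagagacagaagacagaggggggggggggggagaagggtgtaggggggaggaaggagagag
Fgf13, chrX:142423537-142423636, minus strand: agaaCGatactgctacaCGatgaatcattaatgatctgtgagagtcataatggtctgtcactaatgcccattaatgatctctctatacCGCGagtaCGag

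Over the 250 bases before the start, the Scn4b window held 21 CpG and was 71.6% G and C, whereas the Scn2b window held 1 CpG and was 38.8% G and C. Among 33469 such windows the median was 5 CpG and 51.2% G and C, so the adjacent genes lay on opposite sides of it. The RefSeq model of Scn4b opens directly on an ATG, so its window may hold transcribed bases. No annotated start, that of Scn2b included, was checked against these libraries. Fgf13 was as poor in G and C as Scn2b, at 38.8%, with 7 CpG. The annotated starts of Fgf12 lie 299811 bases apart, with 17 and 3 CpG in their windows. Such alternative starts give the FGF homologous factors different N-terminal ends, which a value per gene cannot separate. The deposited Fgf12 locus spans 263547 bases, less than the distance between those starts. Whether its value covers both of them is not known. Nothing measured here bears on how these windows are used.

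Expression is given as FPKM, the fragments of a gene scaled to its transcript length and to the size of the library. Constants derived from the deposited tables would correspond to 51900000 to 62800000 fragments per library, a depth not checked against another source. An FPKM of 1 was reached by 13093 to 13286 genes per library. All 13 pan-neuronal markers were tested, led by the neurofilament gene Nefl (mean 1897 FPKM) and the tubulin gene Tubb3 (1560 FPKM). Their summed FPKM was 8969 to 10330 in controls and 8892 to 9858 in PDN. Other cells were present too, with summed FPKM over the 6 libraries of 3413 to 4235 for 7 Schwann cell markers and 1598 to 1862 for 7 satellite glia markers. Libraries differed in skeletal muscle RNA. Control 2 had the most, with 193 FPKM of the muscle actin gene Acta1, followed by PDN 3 (68.8) and PDN 1 (13.3), and the other libraries had no more than 1.35, and the creatine kinase gene Ckm had the same order at 97.5, 31.7 and 5.59 FPKM. In a tissue sample, fewer cells of a type and less RNA per cell cannot be told apart.

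The genes fell into 3 ranges of expression. Fgf13 averaged 211 FPKM over the 6 libraries, Scn4b 138 and Fgf12 113. Scn2b averaged 18.9 FPKM and Scn3b 17.2. Fgf14 averaged 1.07 FPKM and Fgf11 0.732. The genes tested were the 13282 that reached an FPKM of 1 in 3 or more libraries. Among them, 174 had a higher mean than Fgf13, 359 a higher mean than Scn4b and 475 a higher mean than Fgf12. Scn2b stood above 70.3% of them and Scn3b above 67.7%. Fgf14 stood above 1.79%, and Fgf11 did not reach an FPKM of 1 in any library.

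**Figure D1:**
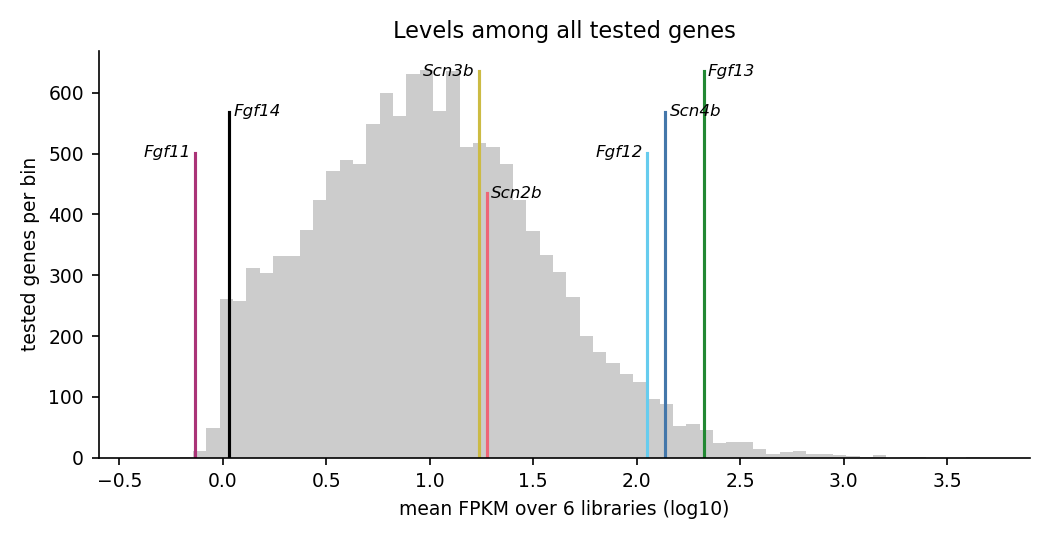
The histogram shows the mean FPKM over the 6 libraries (horizontal axis, log10) of all 13282 tested genes, as genes per bin. Vertical lines, whose heights carry no value, mark the 7 genes: Fgf13, Scn4b and Fgf12 stand in the upper tail, Scn2b and Scn3b right of the peak, and Fgf14 and Fgf11 at the lower edge, where Fgf11 was itself not tested.

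The order of the levels was compared within libraries on the log2(FPKM + 1) scale, with an exact two-sided sign-flip permutation test over 6 libraries and adjustment over the 6 neighbouring pairs. Of the 6 pairs, 4 kept their order in every library, and each gave an exact permutation p = 0.0312, the smallest that 6 libraries allow (adjusted p = 0.0469). The neighbours were set by the means over these same libraries. A pair with the same order in all 6 must give that p, so it only restates the count. Fgf13 was 1.28 to 1.68 times as high as Scn4b, Scn4b 1.09 to 1.31 times as high as Fgf12, Fgf12 4.55 to 7.44 times as high as Scn2b, and Scn3b 13.3 to 22.7 times as high as Fgf14. Scn2b and Scn3b did not differ beyond their spread, with Scn2b higher in 4 of 6 libraries (exact permutation adjusted p = 0.344). Fgf14 was above Fgf11 in 5 of 6 libraries (exact permutation adjusted p = 0.075). A comparison of FPKM between genes depends on the transcript length the authors assigned to each gene.

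**Figure D2:**
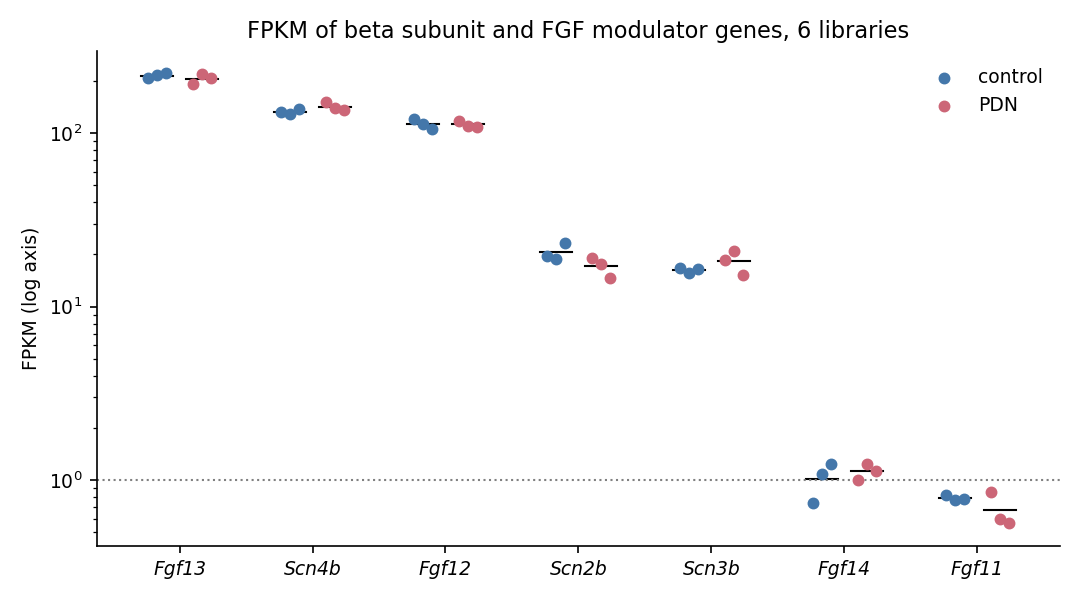
FPKM (log axis) of the 7 genes in each of the 3 control and 3 PDN libraries. Points are libraries, horizontal lines are group means, and the dotted line is an FPKM of 1. The 3 ranges are plain in both groups, and for every gene the libraries of the groups overlap.

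The abundant genes also varied least. Over the 6 libraries the coefficient of variation, the SD as a percentage of the mean, was 5.14% for Fgf12, 5.18% for Fgf13 and 5.48% for Scn4b. It was 12.4% for Scn3b, 14.7% for Scn2b, 16.6% for Fgf11 and 17.5% for Fgf14. The median of all tested genes was 9.76%.

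The comparison of PDN with control asked whether the genes differ with painful neuropathy. None of the 6 tested genes passed the threshold, an adjusted p of 0.05 over all 13282 genes in limma, and none had an unadjusted p under 0.05. Over all tested genes, 0 (0%) passed the adjusted threshold, and 627 (4.72%) had an unadjusted p under 0.05. Of those 627, 38.8% were higher in PDN, a share that other scalings of the libraries put at 50.4% (median of ratios) or 48.2% (upper quartile). The groups overlapped for each of the 7 genes, whereas they did not for 9.93% of the tested genes (3.69% with PDN above and 6.24% with PDN below). Of the 6 estimates, 3 were higher and 3 lower in PDN, with a median log2 difference of 0.04 against -0.02 for all tested genes. The median of the selected genes turned to -0.01 both without the filter, where Fgf11 is added, and with a filter of an FPKM of 1 in all 6 libraries, where Fgf14 is lost.

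Among the beta subunits, Scn2b had the largest difference. The beta-2 subunit that it encodes is joined to the alpha subunit by a disulfide bond. It was at 19.7, 19.0 and 23.2 FPKM in controls 1 to 3 and at 19.1, 17.7 and 14.6 in PDN 1 to 3. The groups overlapped by 1 library on each side: PDN 1 lay just above control 2, control 3 was the highest of the 6 and PDN 3 the lowest. Control libraries averaged 20.6 ± 2.26 FPKM and PDN libraries 17.2 ± 2.32 (SD, n = 3 each). The difference on the log2(FPKM + 1) scale was -0.25 ± 0.12 (SE), with a 95% interval of -0.53 to 0.02 (limma p = 0.065, limma adjusted p = 0.999; exact permutation p = 0.2). Without PDN 3, 1 of the libraries rich in muscle RNA, it was -0.15 (limma unadjusted p = 0.211). Without control 3 it was -0.17 (limma unadjusted p = 0.206), and without PDN 1 it was -0.33 (limma unadjusted p = 0.0311). The estimate was negative under all 18 alternative analyses, and the adjusted p was at least 0.78. The changes of filter, the empirical Bayes settings and the replicate block cannot change an estimate, so only the other alternatives could turn its sign.

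Scn3b encodes beta-3, which is bound to the alpha subunit without a disulfide bond. Its FPKM was 16.7, 15.5 and 16.4 in controls 1 to 3 and 18.5, 20.9 and 15.3 in PDN 1 to 3. PDN 1 and PDN 2 lay above every control, whereas PDN 3 was the lowest of all 6 libraries. Control libraries averaged 16.2 ± 0.619 FPKM and PDN libraries 18.2 ± 2.83 (SD, n = 3 each), and the log2 difference was 0.15 ± 0.11 (SE), with a 95% interval of -0.11 to 0.41 (limma adjusted p = 0.999). Without PDN 3 it was 0.26 (limma unadjusted p = 0.0235, adjusted p = 0.784), and without PDN 2 it was 0.05 (limma unadjusted p = 0.645).

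Scn4b encodes beta-4, whose intracellular end can block the open pore and so gives rise to the resurgent sodium current that supports fast repetitive firing. It was at 132, 128 and 138 FPKM in controls 1 to 3 and at 150.4, 140.3 and 137 in PDN 1 to 3. PDN 1 and PDN 2 lay above all controls, and PDN 3 fell just below control 3. The means were 133 ± 4.73 and 142 ± 7.19 FPKM (SD, n = 3 each), a log2 difference of 0.10 ± 0.07 (SE) with a 95% interval of -0.05 to 0.25 (limma adjusted p = 0.999). Muscle can also express Scn4b. Control 2 and PDN 3, the libraries with the most muscle RNA, were at 128 and 137 FPKM, and with both left out the difference was 0.10. Leaving out single libraries gave 0.06 (without PDN 1) to 0.13 (without PDN 3).

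Of the FGF homologous factors, Fgf13 was the most abundant. Its product binds sodium channels and also microtubules, and in mice it is needed in sensory neurons for the response to noxious heat. It was at 207.8, 216 and 222 FPKM in controls 1 to 3 and at 192, 220.4 and 207.5 in PDN 1 to 3. PDN 1 lay below every control and PDN 3 just below the lowest, whereas PDN 2 was among the highest. The means were 215 ± 6.96 and 207 ± 14.05 FPKM (SD, n = 3 each), and the log2 difference was -0.06 ± 0.07 (SE) with a 95% interval of -0.23 to 0.11 (limma adjusted p = 0.999). Without PDN 1 it was -0.0080, and without PDN 2 it was -0.11.

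Fgf12, which also shifts the voltage dependence of channel inactivation, was at 121, 113 and 105 FPKM in controls 1 to 3 and at 118, 110.5 and 109 in PDN 1 to 3. All 3 PDN values lay within the control range. The log2 difference was -0.01 ± 0.07 (SE), with a 95% interval of -0.18 to 0.16 (limma adjusted p = 1), and its sign turned with the scaling between libraries, to 0.01 with median-of-ratios scaling.

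Fgf14, known for its role at the axon initial segment and for a hereditary ataxia, was at 0.736, 1.09 and 1.24 FPKM in controls 1 to 3 and at 1.01, 1.24 and 1.14 in PDN 1 to 3. Control 1 stood below the other 5 libraries. The log2 difference of 0.08 ± 0.13 (SE) had a 95% interval of -0.22 to 0.38 (limma adjusted p = 0.999), and it became -0.03 without control 1. Fgf11, the least studied of the family, was at 0.823, 0.772 and 0.778 FPKM in controls 1 to 3 and at 0.858, 0.595 and 0.565 in PDN 1 to 3. PDN 1 was the highest and the other PDN libraries were the lowest. Fgf11 was below the filter, and an exact two-sided permutation test of its 3 against 3 libraries gave p = 0.4, where the smallest possible is 0.10. Without the filter its log2 difference was -0.10 ± 0.08 (SE; limma adjusted p = 0.97). At such low levels the log2(FPKM + 1) scale understates a change.

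**Figure D3:**
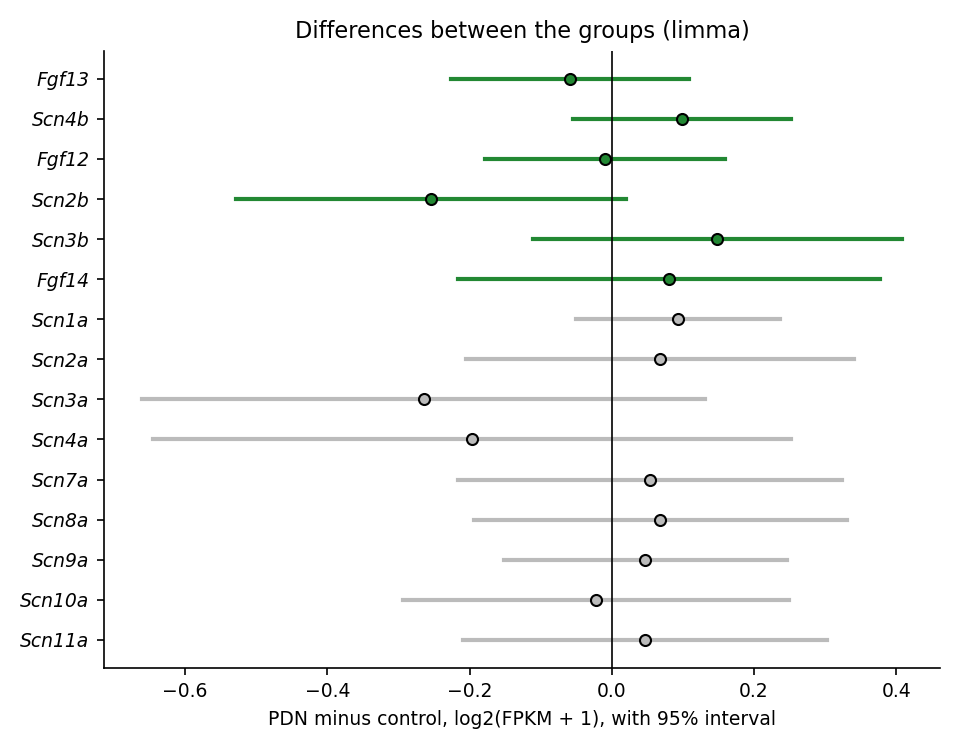
Points are PDN minus control differences on the log2(FPKM + 1) scale and bars their 95% intervals from limma, for the 6 tested genes (green) and 9 alpha subunit genes (light grey). Every interval includes 0; that of Scn2b, from -0.53 to 0.02, reaches it only near its upper end.

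The intervals bound what these samples can show. For Fgf12, Fgf13 and Scn4b the 95% intervals stayed between -0.23 and 0.25 on the log2 scale. For Scn2b they allowed a fall of as much as 0.53, and for Scn3b a rise of as much as 0.41.

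The makeup of each family was described by the share of every gene in the summed FPKM of the selected genes of that family. The 3 beta subunit genes summed to 169.7 ± 7.32 FPKM in controls and 178 ± 10.9 in PDN, and the 4 FGF homologous factor genes to 330.1 ± 0.963 and 321 ± 10.6 (SD, n = 3 per group; exact two-sided permutation p = 0.4 for both). In controls Scn4b made up 78.3% ± 0.585 of the beta subunit sum, Scn2b 12.1% ± 0.812 and Scn3b 9.57% ± 0.327. Fgf13 made up 65.2% ± 2.21 and Fgf12 34.3% ± 2.28 of the FGF homologous factors, leaving 0.309% for Fgf14 and 0.240% for Fgf11.

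The share of Scn2b in the beta subunit sum was 11.7%, 11.6% and 13.1% in controls 1 to 3 and 10.2%, 9.90% and 8.77% in PDN 1 to 3. Here the groups did not overlap, with 12.1% ± 0.812 in controls against 9.62% ± 0.743 for PDN (SD, n = 3 each). The difference of -2.50 percentage points had an exact two-sided permutation p of 0.1, the smallest this design allows, and an adjusted p of 0.7 over the 7 shares. For the other 6 shares the groups overlapped, with exact permutation p-values of 0.3 to 0.7. In FPKM, the groups did not overlap for 9.93% of all tested genes, and no such rate was computed for shares. Scn4b makes up most of the beta subunit sum. The Scn2b share and the ratio of Scn2b to Scn4b given below are therefore not separate observations.

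**Figure D4:**
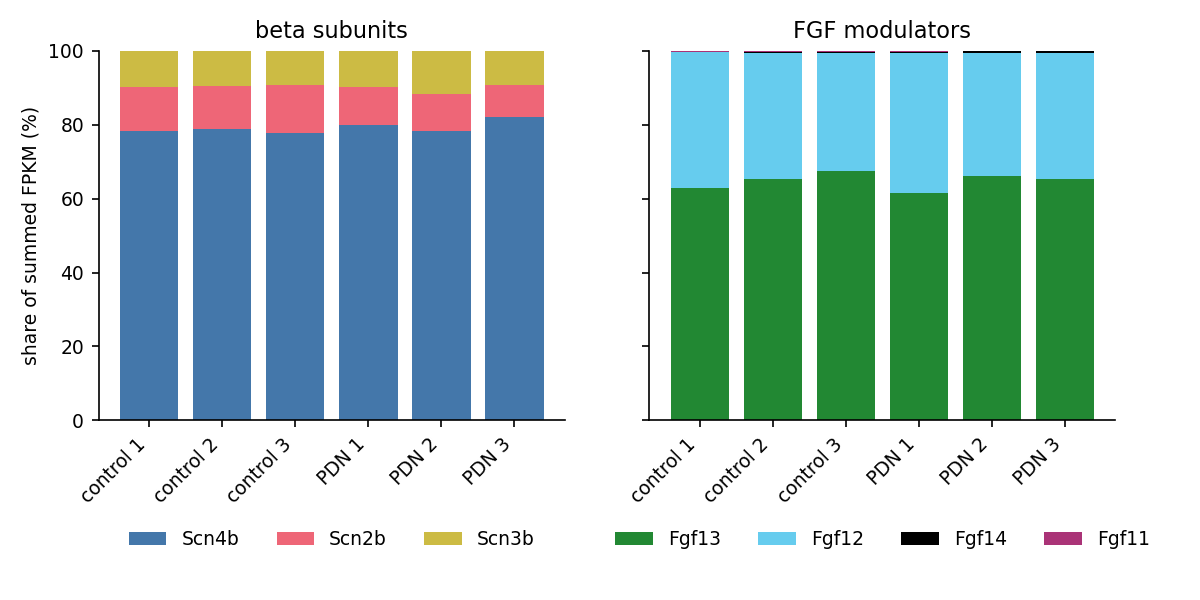
Stacked bars give the share of each gene in the summed FPKM of the selected genes of its family, from 0 to 100%, in each library. Scn4b makes up most of the beta subunit sum, and Fgf13 with Fgf12 nearly all of the FGF homologous factors, in all 6 libraries; the Scn2b band is thinner in the PDN libraries (8.77% to 10.2%) than in controls (11.6% to 13.1%).

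Ratios between the genes were added after these values were seen. A ratio within a library does not depend on the scaling between libraries. Of the 21 ratios among the 7 genes, 5 (23.8%) had groups that did not overlap. Among the 15 ratios without Fgf11, which was not tested, 4 (26.7%) did so, against 10.2% of all pairs of tested genes. Of the 5, 3 involve Scn2b, so they share its values and are not separate observations. Scn2b was at 0.149, 0.148 and 0.168 of the level of its chromosomal neighbour Scn4b in controls 1 to 3 and at 0.127, 0.126 and 0.107 in PDN 1 to 3. The log2 ratio averaged -2.69 ± 0.11 for controls and -3.06 ± 0.14 for PDN (SD, n = 3 each), a difference of -0.37. Against Scn3b, Scn2b was at 1.18, 1.22 and 1.41 in controls, where it was the higher of the pair, and at 1.04, 0.846 and 0.954 in PDN, where Scn3b was higher in 2 of 3 libraries. Its ratio to Fgf12 also separated the groups, by a narrow margin, with a log2 difference of -0.26. The remaining separated ratios were Scn3b to Fgf11 and Scn4b to Fgf13, at 0.41 and 0.16. Their margins were narrow too. For Scn3b to Fgf11 the lowest PDN ratio was 21.5 and the highest control ratio 21.1. For Scn4b to Fgf13 these were 0.6368 and 0.6364. Each of the 5 had an exact permutation p of 0.1, the smallest possible, and an adjusted p of 0.42 over the 21 ratios. No difference in a ratio passed adjustment, and such a difference would not say which gene moved.

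**Figure D5:**
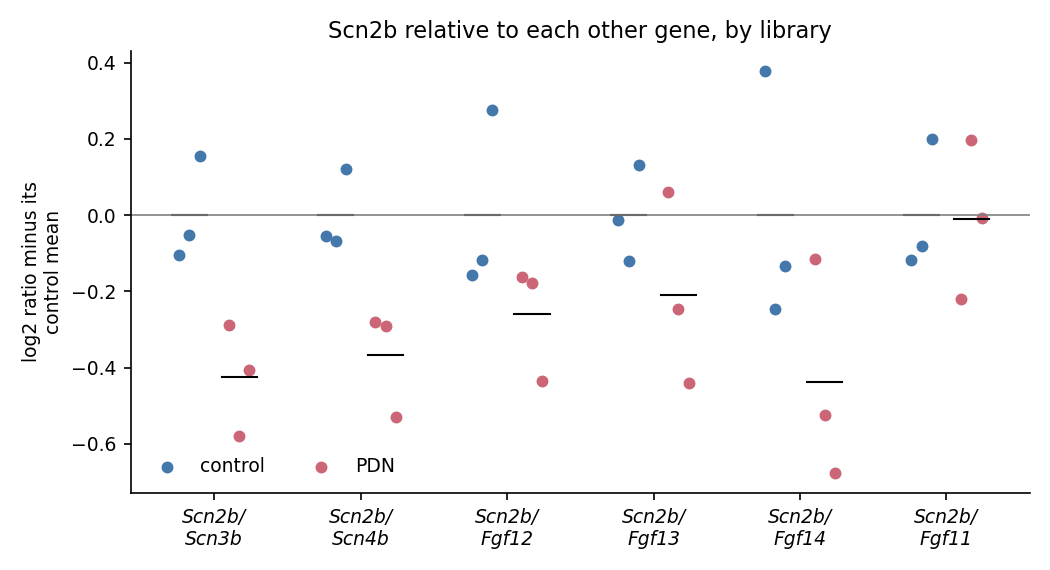
Each point is the log2 ratio of Scn2b to another gene in 1 library, minus the mean of that ratio in controls; horizontal lines are group means. The 3 PDN libraries lie below the 3 controls for Scn3b, Scn4b and Fgf12, whereas the groups overlap for Fgf13, Fgf14 and Fgf11.

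Neuronal RNA content was compared with the genes across the 6 libraries through the mean log2(FPKM + 1) of the 13 pan-neuronal markers, which was 8.05 to 8.27 in controls and 8.11 to 8.21 in PDN. The family held 7 relations, with exact permutation p-values adjusted over them. Fgf14 had a Pearson r of -0.83 (exact permutation p = 0.0361, adjusted p = 0.253) and a Spearman rho of -0.60 (exact permutation p = 0.242). Without control 1 and PDN 1, the libraries farthest from the median of the markers, its r was 0.52, so the relation rests on those samples. Fgf12 had an r of 0.76 (exact permutation p = 0.0847, adjusted p = 0.297) and a rho of 0.60 (p = 0.242), and its r without those libraries was -0.54. The other 5 genes had an r of -0.64 to 0.42, with adjusted exact permutation p-values of 0.402 to 0.949 and rho from -0.66 to 0.43 (p of 0.175 to 0.919). Without control 1 and PDN 1 their r also moved, to 0.86 for Scn4b, -0.81 for Fgf11, -0.47 for Scn2b, 0.33 for Scn3b and -0.27 for Fgf13. With the libraries scaled to the neuronal markers, the Scn2b difference was -0.27, that of Scn3b 0.14 and that of Scn4b 0.09.

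The partners of these proteins were taken from lists of 48 genes, which were all tested. None passed the adjusted threshold in limma, and 1 (2.08%) had an unadjusted p under 0.05, against 4.72% of all tested genes. Among 9 genes of alpha subunits, which form the pores, 0 passed either threshold and the median log2 difference was 0.05. The nociceptor channel genes Scn9a (82.3 ± 8.42 FPKM in controls and 84.9 ± 3.73 in PDN), Scn10a (120.2 ± 15.8 and 118 ± 11.9) and Scn11a (99.3 ± 14.4 and 102 ± 4.35) were also abundant (SD, n = 3 each). Their means over the 6 libraries, 83.6, 119 and 101 FPKM, lay below the 138 of Scn4b. Only that of Scn10a lay above the 113 of Fgf12. Scn8a, the channel of the nodes of Ranvier, was at 45.7 ± 5.05 and 48.0 ± 5.65 FPKM, and Scn7a, a sodium-sensing channel that glia also express, was the most abundant at 209.8 ± 26.5 and 217 ± 22.9. For Scn1a, a channel of large sensory neurons, the 3 PDN libraries (45.9 to 47.5 FPKM) lay above the 3 controls (41.4 to 45.1). Its log2 difference was 0.09 ± 0.06 (SE; limma adjusted p = 0.999). Scn2a (2.31 ± 0.327 and 2.47 ± 0.324 FPKM), the developmental channel gene Scn3a (3.10 ± 0.704 and 2.41 ± 0.571) and the muscle channel gene Scn4a (1.70 ± 0.763 and 1.30 ± 0.167) were low. Scn4a was highest, at 2.58 FPKM, in control 2, the library with the most muscle RNA.

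Of 9 genes for anchors and adhesion partners, 1 had an unadjusted p under 0.05. This was Tnc, which encodes the matrix protein tenascin-C, a ligand of beta subunits. It was at 20.4, 20.1 and 17.6 FPKM in controls 1 to 3 and at 10.5, 10.1 and 16.0 in PDN 1 to 3. All PDN values lay below all controls, with PDN 3 nearest to them. The log2 difference was -0.65, with an unadjusted p = 0.00475 and an adjusted p = 0.811 in limma. Fibroblasts also make tenascin-C, and the 6 fibroblast markers summed to 370 to 411 FPKM in controls and 318 to 360 in PDN, all 6 with a lower estimate in PDN and 2 of them at an unadjusted p under 0.05. Macrophage markers, 5 of 6 of them tested, summed to 29.5 to 41.8 FPKM in controls and 20.4 to 31.3 in PDN, with 4 estimates lower and 3 of these at an unadjusted p under 0.05. Satellite glia markers summed to 1598 to 1862 FPKM in controls and 1646 to 1784 in PDN, with 5 of 7 estimates lower and 2 at an unadjusted p under 0.05. Of the 7 Schwann cell markers, 3 estimates were higher and 4 lower, with 1 lower at a limma unadjusted p under 0.05. Of the 4 endothelial markers tested, 1 was higher and 3 lower, with 1 in each direction at a limma unadjusted p under 0.05. The part of these cells in the Tnc difference was not tested. None of the 9 secretase genes, whose products cleave beta subunits, and none of the 21 genes for kinases, ligases and adaptors that act on the channel or on the FGF homologous factors had an unadjusted p under 0.05. Their median log2 differences were -0.05 and -0.01. Among all partner lists, the groups did not overlap in 2 genes (4.17%), Scn1a and Tnc, against 9.93% of all tested genes.

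For each tested gene, the gene with the most similar profile over the 6 libraries was taken from 11799 others by the Pearson r of log2(FPKM + 1). These were Gba2 for Scn2b (r = 0.990), Ess2 for Scn3b (0.990), Zer1 for Scn4b (0.999), Tlk2 for Fgf12 (0.996), Gnl3l for Fgf13 (0.998) and Pot1 for Fgf14 (0.989). Over all 11800 candidate genes the median of the highest r was 0.992. The values for Scn4b, Fgf12 and Fgf13 lay above that median, and those for Scn2b, Scn3b and Fgf14 below it.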

How the data were processed

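RNA sequencing of 3 control and 3 PDN libraries was analysed. Trizol was used for extraction, and strand-specific libraries were made from total RNA, per the labels' protocols. Aligner, quantifier and build: not given in the sources used here. One table holds FPKM as the authors deposited it. The whole numbers of the other deposited table, named for read counts, were treated as a score: for 54.5% to 54.8% of genes above 1000 they equal FPKM times genomic span times 1 constant per library (relative tolerance 0.001), so no count model was run. The fragments per library stated above are those the constants would imply, and were not measured directly. Counting intervals could not be computed.

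Genes reaching an FPKM of 1 in 3 or more libraries entered a limma fit (version 3.58.1, R 4.3.3) of log2(FPKM + 1), with an intensity trend and no term but the group, and Benjamini-Hochberg adjustment over 13282 genes. On simulated data the fit recovered 91 of 100 genes changed by 1 and 97 of 100 changed by 2 on the log2 scale, with 11 calls among unchanged genes. Those changes were larger than the differences of the 6 tested genes, which ran from -0.25 to 0.15. Recovery of differences that small was not tested. Exact tests used scipy 1.17.1. The genes, lists and tests were chosen with earlier results of these data known. The genes named are the 7 selected, alpha subunits, partner genes at an unadjusted p under 0.05, the most similar gene of each tested gene, and the 2 most abundant neuron and muscle markers. Family sums and partner lists leave out items that are not reported here. Alternatives were other pseudocounts, filters, scalings, empirical Bayes settings, the whole-number table, a replicate block and libraries left out.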

Additional observations from a re-analysis of the deposited data

How the results depend on the processing

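The number of the selected genes past the threshold was 0 under all 18 alternatives of the limma fit, with 5 to 7 of them tested in each. Fgf11 was tested only without the filter. Fgf14 was not tested with the filter of an FPKM of 1 in all 6 libraries. The count over all tested genes, 0, became 1 without the filter, without the intensity trend or with robust empirical Bayes, 2 in the whole-number table, and 9 without control 2 and PDN 3. Leaving out each library in turn gave 0 to 6 (3 without control 1, 2 without control 3, 4 without PDN 1 and 6 without PDN 3). The signs of Scn2b, Scn3b, Scn4b and Fgf13 held in all 18. A change of filter, an empirical Bayes setting or the replicate block leaves each estimate as it is. A sign could therefore turn only under the other alternatives. Fgf12 turned to 0.013 with median-of-ratios scaling, 0.0082 with upper-quartile scaling and 0.016 without control 2 and PDN 3, and leaving out single libraries gave -0.059 to 0.038. For Fgf14 these values were -0.025 to 0.16. The median of the tested genes ran from 0.0065 to 0.045 with single libraries left out, was 0.060 without control 2 and PDN 3, and turned to -0.0095 under either change of the filter. Left out in turn, libraries moved the difference in share (percentage points) from -0.064 to 1.19 for Scn3b, -0.59 to 1.93 for Fgf12, -1.90 to 0.596 for Fgf13 and -0.0019 to 0.074 for Fgf14, and for Scn2b from -2.78 to -2.03. The pairs of genes in one order in every library numbered 4 to 5, a count that leaving out a library can raise but hardly lower. The relation of Fgf14 to neuronal markers passed 0.05 unadjusted with Pearson's r but not with Spearman's rho (-0.60). The cause of these changes was not tested.

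Replicate numbers are shared by the groups, but same-numbered samples did not deviate together (correlations of 0.17, -0.12 and -0.086 across genes). With the replicate block 0 genes passed and 849 had an unadjusted p under 0.05, against 627. Each replicate number has 1 library per group, so the block cannot change a difference, only its p-value. The Scn2b difference is therefore still -0.25 (limma adjusted p = 0.78), and the median of the tested genes is 0.035. For the shares, a block was added after the data were seen. It likewise cannot change the Scn2b difference of -2.50 points, and gave an exact permutation p = 0.25, the smallest for 3 pairs. Counting error could not be assessed, which limits most what can be said of Fgf11 and Fgf14.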
